A study of Mus musculus with 2 samples.

Results

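The AP-1 transcription factor subunits and the immediate early genes that are usually induced with them were examined in the stomach of mouse embryos. The genes were chosen by name and not by a threshold on their values. They were the Jun family (Jun, Junb, Jund), the Fos family (Fos, Fosb, Fosl1, Fosl2), the stress-induced factor Atf3, the zinc finger factor Egr1 and the short nuclear protein gene Ier2. All 10 were found in both gene tables, out of 43346 genes, and all 10 had enough counts to be tested. Total RNA longer than 200 nucleotides was taken from whole stomachs of B6NCrl embryos at day 15.5, with 10 ng of input per library and ERCC spike-ins added. Replicate 1 pooled 78 embryos and replicate 2 pooled 62, males and females together. The labels name no treatment or altered allele, and there was no second condition. The ratios below therefore compare the pools, as replicate 1 over replicate 2. The libraries held 43209506 and 44257493 expected counts on genes. Of the markers of stomach, 11 of 12 glandular genes and 8 of 8 mesenchymal genes, Barx1 and Gata4 among them, reached 1 TPM in both libraries, but genes of pancreas, liver and blood did as well. In such pools fewer cells of a type and less RNA per cell cannot be told apart.

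AP-1 is a dimer of basic leucine zipper proteins. Jun proteins can pair with one another or with Fos proteins, whereas Fos proteins need a Jun partner to bind DNA. Growth factors, stress and tissue handling act through MAP kinases on factors already bound at the Fos, Egr1, Ier2 and Junb promoters, and these genes are then transcribed within minutes, without new protein synthesis. Their mRNAs and proteins are short-lived, in part because of AU-rich stretches at the mRNA's 3′ end. In stratified epithelium, such as the lining of the forestomach, AP-1 is known to act on differentiation genes.

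The start regions of Fos, Junb and Jun are shown because Fos and Junb had the largest ratios between the pools, while Jun had the highest level and nearly the same level in both. Each window holds 300 bases, 250 before and 50 after the RefSeq start (GRCm38.p6), read in the direction of the gene. Capitals mark matches to the motifs searched on both strands, which were TGACG (the core of a cAMP response element), TGACNTCA (a full element or the variant known from the Jun promoter), TGANTCA (the classical AP-1 site), TATAAA (where basal factors bind), the CCAAT box and the CArG box of serum response factor. A full palindromic element also contains TGACG.
Fos, chr12:85473640-85473939, plus strand: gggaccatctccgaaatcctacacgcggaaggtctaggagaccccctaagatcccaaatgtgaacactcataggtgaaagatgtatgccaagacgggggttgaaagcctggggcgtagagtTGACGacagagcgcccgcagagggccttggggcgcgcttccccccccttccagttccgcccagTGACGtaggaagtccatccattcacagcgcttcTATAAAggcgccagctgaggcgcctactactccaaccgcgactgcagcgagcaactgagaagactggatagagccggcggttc
Junb, chr8:84978699-84978998, minus strand: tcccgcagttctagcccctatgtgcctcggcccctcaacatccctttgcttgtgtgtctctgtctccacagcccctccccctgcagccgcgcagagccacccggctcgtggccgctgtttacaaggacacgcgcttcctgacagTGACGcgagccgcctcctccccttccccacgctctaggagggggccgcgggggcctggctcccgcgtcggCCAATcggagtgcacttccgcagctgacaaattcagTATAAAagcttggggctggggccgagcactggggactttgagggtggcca
Jun, chr4:95052173-95052472, minus strand: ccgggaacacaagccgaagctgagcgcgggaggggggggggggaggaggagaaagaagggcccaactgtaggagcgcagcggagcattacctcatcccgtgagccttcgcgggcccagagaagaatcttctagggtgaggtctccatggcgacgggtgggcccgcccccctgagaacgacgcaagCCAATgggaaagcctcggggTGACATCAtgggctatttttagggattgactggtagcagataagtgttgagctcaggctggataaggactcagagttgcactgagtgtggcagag

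In the Fos window the core TGACG occurred at positions -129 and -66 from the start and TATAAA at -33. Junb had TGACG at -106, CCAAT at -36 and TATAAA at position 1 of the RefSeq start, which lies 30 bases upstream of the M21 start. Jun had TGACATCA at -45 and CCAAT at -65. Windows were given for 7 of the 10 genes. The RefSeq starts of Jund, Fosl2 and Atf3 lay 1210, 671 and 34706 bases from the start of the gene in M21. Those of Jun, Fos, Fosb and Junb lay 0 to 30 bases from it. Which start was used in these pools was not tested, so a window may miss it. The Jund and Fosl2 windows held 0 matches to any motif. TGACG was in 4 of these 7 (Fos, Junb, Fosb and Atf3), and in 20.8% of all 32851 windows. TGACNTCA was in the Jun window alone among the 7, and in 8.83% of all windows. CCAAT was in 3 of the 7 and in 37.4% of all windows. TATAAA was in the Fos and Junb windows and in 13.6% of all. No window of the 7 held TGANTCA (7.81% of all windows) or a CArG box (1.63%), which says only that these letters are not within these bases. Matches are descriptions of the sequence and not of binding.

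Jun led the Jun family and all 10 genes. Jun encodes c-Jun, the founding partner of Fos, from a single exon on chromosome 4 (ENSMUSG00000052684.4; mm10, 95049034 to 95052222, minus strand). Its level was 83.63 TPM, a length-corrected transcript abundance, in replicate 1 and 83.86 TPM in replicate 2. Junb, whose protein often acts against c-Jun in growth control and which is itself an immediate early gene, lies on chromosome 8 (84974484 to 84978718). It was at 39.89 TPM in replicate 1, against 26.77 TPM in replicate 2. Jund, the family member that is usually present in resting cells and little induced, lies on the same chromosome (70698949 to 70700616). It was at 32.90 TPM in replicate 1, against 32.64 TPM in replicate 2. Jun and Jund thus had almost the same level in both pools, while Junb stood above Jund in replicate 1 and below it in replicate 2.

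The Fos family was represented by Fos and Fosl2. Fos, the most rapidly induced AP-1 gene (ENSMUSG00000021250.9; chromosome 12, 85473890 to 85477273), was at 13.43 TPM in replicate 1, against 8.50 TPM in replicate 2. Fosl2 encodes Fra-2, a more slowly induced and longer-lived Fos protein (chromosome 5, 32135801 to 32157842). It was at 8.91 TPM in replicate 1, against 8.07 TPM in replicate 2. Fosl1, which encodes Fra-1 (chromosome 19, 5447547 to 5455946), had 21 counts (0.42 TPM) in replicate 1 and 30 counts (0.60 TPM) in replicate 2. Fosb, known for its strong induction in stimulated neurons (chromosome 7, 19302696 to 19310051), had 12 counts (0.11 TPM) and 11 counts (0.10 TPM). These were the 2 genes that did not reach 1 TPM, so the other 8 were called detected, 4 of them at more than 10 TPM in both libraries.

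Ier2, a gene of the first wave of serum response with a single exon (chromosome 8, 84661331 to 84662852), was the second highest of the 10, with 70.88 TPM in replicate 1 against 73.61 TPM in replicate 2. Egr1, a zinc finger factor induced in the same wave as Fos (chromosome 18, 34859823 to 34864984), was at 7.36 TPM and 7.34 TPM. Atf3, a stress-induced partner of Jun proteins that can also repress as a homodimer (chromosome 1, 191170296 to 191218039), was at 3.57 TPM and 3.44 TPM. All 3 had close values in both pools.

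**Figure D1:**
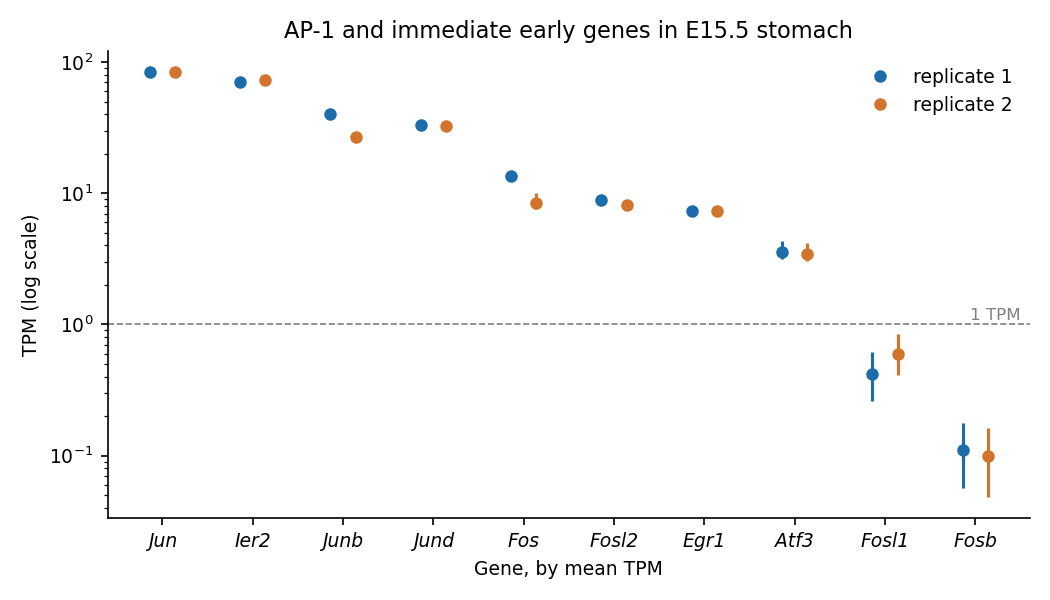
TPM of the 10 genes (log scale) in replicate 1 (blue, left) and replicate 2 (orange, right), with the bounds of the authors' deposited interval as vertical lines, ordered by mean TPM. Jun and Ier2 stand on top above 70 TPM, Fos and Junb have the most separated points among detected genes, and Fosl1 and Fosb lie below the dashed line at 1 TPM.

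By mean TPM with SD over the libraries (n = 2), the order was Jun (83.75 ± 0.163), Ier2 (72.25 ± 1.93), Junb (33.33 ± 9.28), Jund (32.77 ± 0.184), Fos (10.96 ± 3.49), Fosl2 (8.49 ± 0.594), Egr1 (7.35 ± 0.0141), Atf3 (3.51 ± 0.0919), Fosl1 (0.510 ± 0.127) and Fosb (0.105 ± 0.00707). The values of neighbours overlapped for Junb with Jund and for Fos with Fosl2, and for no other neighbours in this order. The authors' deposited intervals for Junb were 37.5 to 40.8 TPM in replicate 1 and 24.9 to 27.7 TPM in replicate 2, and those for Fos were 12.3 to 14.9 TPM and 7.59 to 9.99 TPM. Those for Fosl2 were 8.32 to 9.18 TPM and 7.52 to 8.33 TPM. For these 3 genes each library's TPM lay outside the interval of the other library. Against the 13846 coding genes detected in both libraries (median 17.8 TPM), Jun stood above 86.6% and Ier2 above 84.3%, Junb above 67.8%, Fos above 37.0% and Egr1 above 27.3%.

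The 4 genes with a single exon in their leading transcript, Jun, Ier2, Junb and Jund, were the 4 highest, and the other 6 had 3 or 4 exons. Single-exon genes in general were not high in these libraries. Of 1238 coding genes with 1 exon in every M21 transcript, 26.7% were detected, against 66.8% of 20236 coding genes with more exons.

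Jun mRNAs outnumbered Fos mRNAs. The levels of the Jun family summed to 156 TPM in replicate 1 and 143 TPM in replicate 2, those of the Fos family to 22.9 TPM and 17.3 TPM. The Jun sum was thus 6.84-fold the Fos sum in replicate 1 and 8.30-fold in replicate 2, a log2 ratio of 2.91 ± 0.20 (SD, n = 2). Within the Jun family, Jun held 53.5% and 58.5% of the TPM, Junb 25.5% and 18.7%, and Jund 21% and 22.8%. Within the Fos family, Fos held 58.7% and 49.2% and Fosl2 39.0% and 46.7%, while Fosl1 and Fosb made up the rest. Fos and Fosl2 were close to equal in replicate 2, at a TPM ratio of 1.05, and differed more in replicate 1, at 1.51. These family ratios were not tested.

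**Figure D2:**
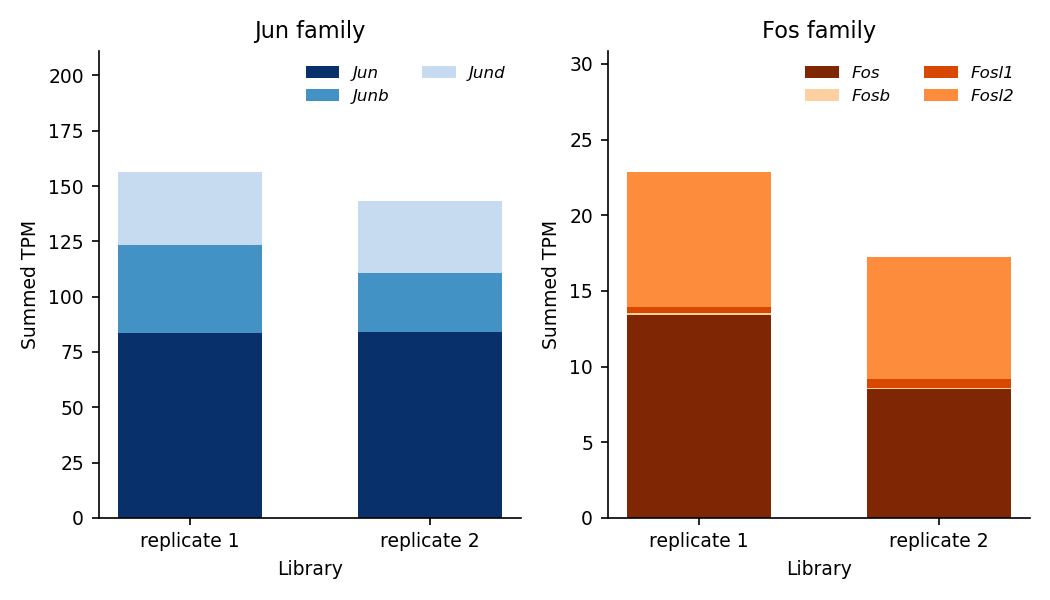
Summed TPM of the Jun family (left panel) and of the Fos family (right panel) in replicate 1 and replicate 2, divided by gene; the panels have different vertical scales. The Jun sums are 156 and 143 TPM and the Fos sums 22.9 and 17.3 TPM, and the dark Fos part and the middle Junb part differ most between the replicates.

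The level of Jund depends on its gene model. The deposited tables count Jund on a model of 2878 bases, whereas M21 gives 1668 bases. A single exon of the longer length that ends at the M21 end would begin at 70697739, which is also the RefSeq start. If all its counts lay on the M21 model, Jund would be at 58.3 TPM in replicate 1, against 57.8 TPM in replicate 2, above Junb in both. The other 9 leading transcripts differed between the tables and M21 by a factor of 0.896 to 1.02 in length. Gm11175, an antisense gene, lies wholly inside Jund on the opposite strand, over 919 bases, and was at 57.9 TPM and 63.1 TPM. Both genes had fractional counts, and since the strand setting is not known, their reads cannot be told apart. Jun, Junb and Fosl1 also overlap exons of a gene on the opposite strand. The span of Junos overlaps that of Jun by 689 bases, and Junos had 30.1 and 46.8 counts, against 7978 and 8035 for Jun. Prdx2, a peroxiredoxin gene, overlaps Junb by 351 bases and was far higher, at 554 TPM and 516 TPM, with a log2 ratio of 0.14. The span of Ccdc85b overlaps that of Fosl1 by 2767 bases. Ccdc85b was at 46.7 TPM and 44.9 TPM. Counts were fractional for Jun (7977.89 and 8035.25) and Junos (30.11 and 46.75). They were whole for Fosl1 (21 and 30), Ccdc85b (735 and 710) and Junb (2144 and 1445), so no division of reads shows there. With the strand setting not known, reads in these stretches still cannot be assigned with certainty. Gm24748, a misc_RNA gene in an intron of Atf3, had 0 counts.

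Fos, Atf3 and Egr1 had more than 1 transcript in the deposited tables, and the other 7 genes had 1 each. For Fos, the coding transcript Fos-201 held 94.3% of the TPM in replicate 1, against 90.1% in replicate 2. It had 785 and 477 counts, whereas the noncoding Fos-202 had 12.7 and 13.9 counts, so that the difference in Fos between the pools lay in the coding transcript. Egr1 was divided between Egr1-202 (92.6% and 88.6%) and the longer Egr1-201 (7.38% and 11.4%). All counts of Atf3 were assigned to Atf3-201. Fosb had a single transcript in the deposited tables but has 7 in M21, so the short form of FosB known from the brain was not measured apart.

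Between the pools, Fos and Junb were higher in replicate 1, Fosl2 slightly so, and the other 7 genes did not pass the test. Fos had 798 counts in replicate 1 and 491 in replicate 2, a log2 ratio of 0.74 (95% exact interval 0.58 to 0.91) with a binomial adjusted p of 2.71e-18. Junb had 2144 counts in replicate 1 and 1445 in replicate 2, a log2 ratio of 0.61 (0.51 to 0.71) with a binomial adjusted p of 1.67e-34. Fosl2 had 1584 and 1440 counts and a log2 ratio of 0.18 (0.08 to 0.28), with a binomial adjusted p of 0.00328. These p-values cover counting error alone and compare the 2 libraries, not conditions. PCR copies are not marked in the tables, so that error too is understated.

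The ratios of Jun (0.03, interval -0.01 to 0.08), Ier2 (-0.02, -0.09 to 0.05), Jund (0.05, -0.03 to 0.12) and Egr1 (0.01, -0.14 to 0.17) lay near 0 with narrow intervals. Atf3 was at 0.09 (-0.20 to 0.38). The interval of Fosl1 (-1.35 to 0.38) held a 2-fold lower level in replicate 1, and that of Fosb (-1.14 to 1.49) a 2-fold difference in either direction. Such differences were thus not excluded at this depth. The intervals of Fos and Egr1, which are induced in the same wave, did not overlap. Fos had 1.82 times the TPM of Egr1 in replicate 1 and 1.16 times in replicate 2, values that need no scaling between libraries. Junb likewise had 1.21 times the TPM of Jund in replicate 1 and 0.820 times in replicate 2.

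**Figure D3:**
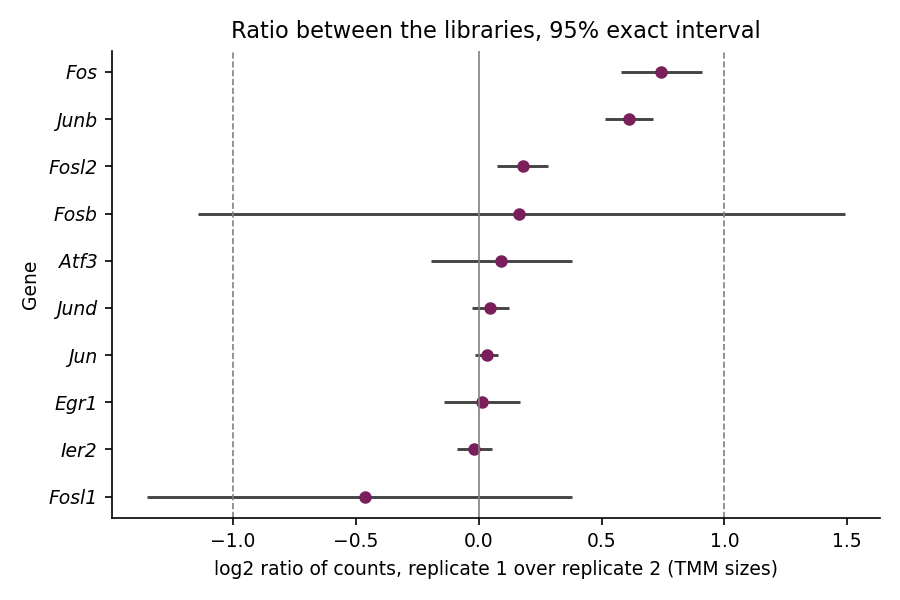
Log2 ratio of counts, replicate 1 over replicate 2 with TMM sizes, for each of the 10 genes, with the exact 95% interval for counting error as a line; dashed lines mark the ratio needed for a call. Fos (0.74) and Junb (0.61) stand apart from 0, the other 5 genes with narrow intervals lie between -0.02 and 0.18, and Fosl1, Fosb and Atf3 have wide intervals.

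None of the 10 genes reached the absolute log2 ratio of 1 needed for a call, while 6.47% of all genes tested were called. Without the ratio limit, 3 of the 10 passed an adjusted p below 0.05 in the binomial test, and so did 31.5% of all genes. The share of the 10 is thus close to the background. All 3 were higher in replicate 1, a direction in which 16.4% of all genes passed, while 15.1% passed in the other. At an unadjusted p below 0.05 the binomial test also gave 3 (39.4% of all genes), of which 0 reached the ratio limit (7.49% of all genes). The edgeR exact test, which takes its spread from the same 2 libraries (biological coefficient of variation 0.197), gave adjusted p of 0.954 for Fos and 1 for Junb. By that test 0 of the 10 passed an adjusted p below 0.05 (3.28% of all genes), and 0 had an unadjusted p below 0.05 (6.89%). The differences of Fos and Junb thus exceeded counting error and did not pass the test that includes the spread between these libraries. With signs kept, the Fos ratio was above that of 89.7% and the Junb ratio above that of 88.2% of all genes tested. The median ratio of the 10 was 0.07, and that of all genes was 0.003. With spike-in totals as library sizes all ratios moved up together, the median of all genes to 0.68. Jun (0.71), Ier2 (0.66) and Egr1 (0.69) then lay near that median, Fosl1 turned positive (0.22), and Fos (1.42) and Junb (1.29) were called. The ratio limit of 1 was not moved with that median. The share of all genes called with these sizes was not counted.

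**Figure D4:**
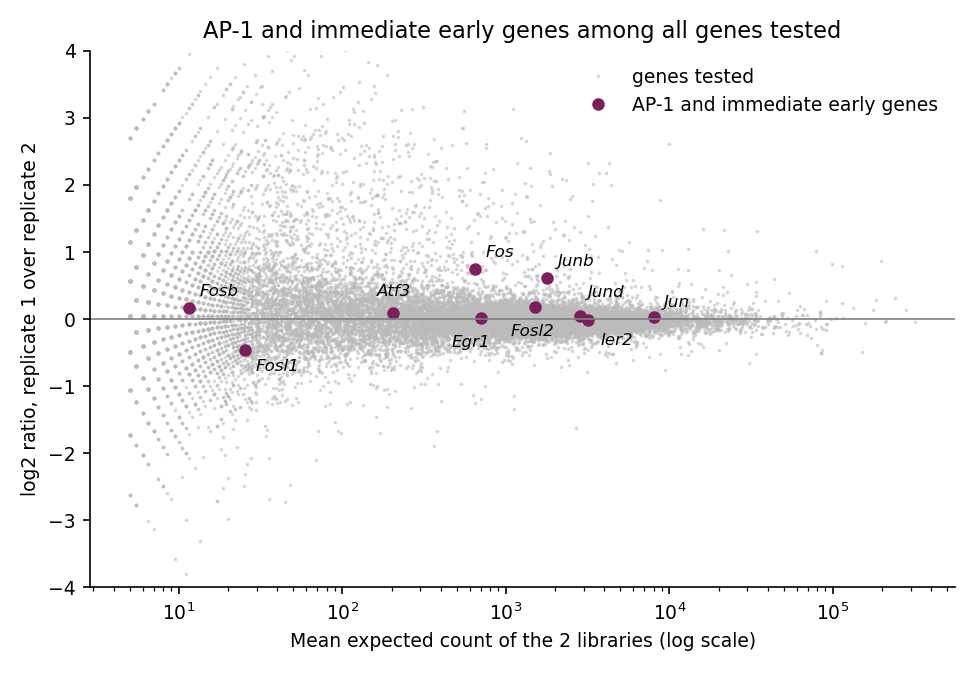
Log2 ratio of replicate 1 over replicate 2 against the mean expected count (log scale) for the 20918 genes tested (grey) with the 10 genes in purple. Fos and Junb lie at 0.74 and 0.61, and 7 of the 10 lie within 0.25 of 0, as do 65.7% of all genes; the 123 genes beyond a ratio of 4 in either direction are not drawn.

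Genes of several cell types also differed between the pools. Squamous forestomach markers were higher in replicate 1 for 12 of 12 genes, with a median log2 ratio of 0.74 and summed levels of 3255 TPM in replicate 1, against 1753 TPM in replicate 2. Liver markers had a median ratio of 1.38 (9 of 10 higher, summed 2307 and 1127 TPM) and erythroid markers 1.22 (7 of 7, summed 278 and 140.0 TPM). Exocrine pancreas markers were lower in replicate 1 for 8 of 8 genes (median -0.48, summed 6873 and 9437 TPM). Smooth muscle (0.01, 4 of 8 higher), gastric mesenchyme (-0.05, 1 of 8 higher) and endothelial markers (-0.08, 1 of 6 higher) had medians near 0. Macrophage markers had one of 0.13 (7 of 8 higher) and glandular markers one of 0.23 (7 of 12 higher). Within each of these lists, except the squamous, erythroid and pancreas lists, single genes moved in both directions. No marker of these 9 lists was at 0 counts in either library. Squamous, liver and erythroid markers thus moved in the direction of Fos and Junb, and pancreas markers in the other. The part of any of these cell types in the ratios of Fos and Junb was not tested.

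Genes of the same response were present at moderate levels. Of 29 other immediate early genes 23 were detected, with medians of 12.8 TPM in replicate 1 against 11 TPM in replicate 2. Myc, the growth regulator (76.28 and 75.12 TPM), Btg2, an antiproliferative gene (59.38 and 58.84 TPM), and Rhob, a small GTPase (37.24 and 34.94 TPM), led them. Egr2, Egr3, Egr4, Nr4a3, Npas4 and Ptgs2 were below 1 TPM in both libraries, at 50 counts or fewer. Of the 26 tested, 7 were higher and 1 lower in replicate 1 at an adjusted p below 0.05, against 16.4% and 15.1% of all genes in these directions. None reached the ratio for a call, while 6.47% of all genes tested were called. The median log2 ratio was 0.14.

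Other basic leucine zipper genes, some of which encode partners of AP-1 subunits, were mostly detected. Of 17 basic leucine zipper genes 15 passed 1 TPM, and the medians of the list were 15 and 13.1 TPM. Atf4, the effector of amino acid and protein folding stress (108.22 and 106.71 TPM), was highest, followed by Atf2, a Jun partner (45.50 and 54.48 TPM), and Atf1 (38.69 and 42.86 TPM). Jdp2, a repressive Jun partner, and Batf2 were below 1 TPM. At an adjusted p below 0.05, 4 of the 17 were higher and 2 lower in replicate 1, against 16.4% and 15.1% of all genes, with a median ratio of 0.02 and no call (6.47% of all genes).

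The signalling genes upstream were all detected. All 12 MAP kinase genes reached 1 TPM (medians 36.1 and 39.0 TPM). Among the highest were Map2k2, a kinase that activates ERK (129.33 and 146.59 TPM), and Mapk3, an ERK gene (80.09 and 78.52 TPM). All 6 genes of serum response factor and its cofactors did too (medians 16.9 and 17.2 TPM), led by Mrtfa (19.46 and 22.83 TPM), Mrtfb (18.37 and 18.54 TPM) and Elk4 (16.63 and 19.77 TPM). In these lists 1 and 0 genes were higher and 2 and 2 lower in replicate 1 at an adjusted p below 0.05, where 16.4% of all genes were higher and 15.1% lower. None was called, against 6.47% of all genes. The median ratios were -0.04 and -0.03.

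Genes that act on AP-1 and Egr activity, by binding AU-rich mRNAs, by repressing Egr proteins or by protein degradation, were all 11 detected (medians 31.1 and 31.0 TPM). Hnrnpd, an AU-rich element binding protein (153.01 and 165.02 TPM), Zfp36l1, which promotes decay of such mRNAs (119.08 and 115.39 TPM), and Cop1, a ubiquitin ligase for Jun (72.86 and 74.13 TPM), were highest. Of the 11, 4 were higher and 4 lower in replicate 1 at an adjusted p below 0.05, against 16.4% and 15.1% of all genes. None was called (6.47% of all genes), and the median ratio was 0.04.

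Among 16 genes known as AP-1 targets in other tissues, 12 passed 1 TPM, and the list medians were 4.56 and 5.46 TPM. The matrix protein gene Spp1 (147.27 and 223.52 TPM), the cyclin gene Ccnd1 (49.54 and 61.31 TPM) and the haem-degrading enzyme gene Hmox1 (23.06 and 19.91 TPM) were highest. Mmp3, Mmp13, Il6 and Ivl were below 1 TPM in both libraries. Ivl encodes involucrin of the squamous cell envelope. It had 55 counts in replicate 1 and 19 in replicate 2, and was the only one of the 86 tested genes in the 6 pathway lists that was called (log2 ratio 1.55, binomial adjusted p = 0.000138, edgeR exact test adjusted p = 0.143). That 1 gene makes 1.16% of the 86, against 6.47% of all genes tested. Of 14 targets tested, 5 were higher and 1 lower in replicate 1 at an adjusted p below 0.05, against 16.4% and 15.1% of all genes, and the median ratio was 0.24. Spp1 went the other way, at -0.57, with a binomial adjusted p of 5.11e-124. The squamous markers described above moved the same way as Ivl, and their part was not tested.

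Heat shock genes, which also respond to tissue handling, were detected for 5 of 6. Hspa8, the constitutive chaperone (1656 and 1961 TPM), Hspb1 (387.26 and 238.57 TPM) and Dnajb1 (68.27 and 59.92 TPM) were highest. Hspa1b (0.74 and 0.28 TPM) was below 1 TPM and was called higher in replicate 1 by the binomial test, at a log2 ratio of 1.45 with an adjusted p of 0.000111, and not by the edgeR exact test (0.177). It was the only call among the 6, where 6.47% of all genes tested were called. Hspa1b shares reads with the near-identical Hspa1a (9.94 and 8.10 TPM) and is uncertain. Hspb1 had a ratio of 0.73 and Hspa8 one of -0.15, and the median of the 6 was 0.28. Their part in the ratios of Fos and Junb was not tested.

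**Figure D5:**
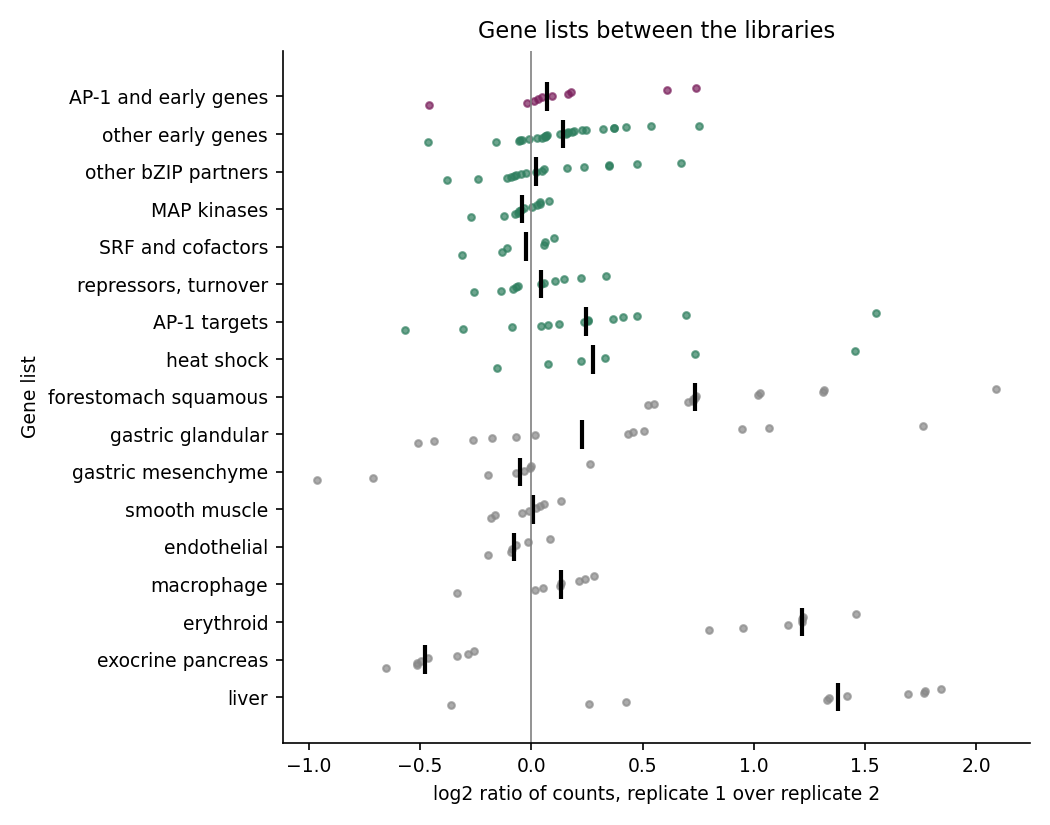
Log2 ratio of counts, replicate 1 over replicate 2, for each tested gene (points) of the 10 AP-1 and early genes (purple), of the pathway and stress lists (green) and of cell type markers (grey), with list medians as black bars. Medians of the pathway lists lie between -0.04 and 0.24, whereas squamous, erythroid and liver markers have medians of 0.74, 1.22 and 1.38 and pancreas markers -0.48.

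AU-rich motifs in the 3′ UTR, known from the short-lived mRNAs of this class, were counted in the leading coding transcript. The pentamer ATTTA was in 9 of the 10 genes, with 8 copies in Fosl2, 4 each in Fos and Jun, 3 in Atf3, 2 each in Egr1 and Junb and 0 in Ier2. It was in 79.7% of the 8868 detected coding genes whose 3′ UTR was as long as one of these (485 to 4653 bases). The nonamer TTATTTATT, which contains ATTTA, was in Fos and Fosl2, 2 of 10, against 8.09% of those genes. Fos and Fosl2 were also the 2 Fos family genes that were detected, and a link of the nonamer to detection was not tested. These sites are shown as the only nonamers found in the 10 genes, with the nonamer in capitals (GRCm38, plus strand).
Fos, chr12:85477107-85477127: ttcaatTTATTTATTaagatg
Fosl2, chr5:32156875-32156895: attttaTTATTTATTttaaat
The Fos site begins 655 bases after the stop codon and the Fosl2 site 3692 bases after it. Over all 10 genes ATTTA occurred 1.91 times per kilobase of 3′ UTR, and 1.81 times in the genes of like length, so the density was close to the background. Jun and Ier2, the highest of the 10, had 4 and 0 copies. No order of levels by these motifs was tested.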

How the data were processed

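Expected counts, TPM and FPKM per gene and transcript, a posterior-mean version of each, and each transcript's percent of its gene's TPM were deposited by the authors. Alignments were made to mm10 transcripts of annotation M4, per the deposited text file. TPM was scaled by the authors with spike-ins included. The aligner, quantification program and strand setting are not given in the sources used here. TPM bounds, held as a score in the deposited tables, come with no stated confidence level.

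The 10 genes were matched by identifier without version to GENCODE M21 symbols (42462 of 43346 genes matched). They and all lists were chosen with earlier results of these data known. Expected counts were rounded. Of the total counts 1.88% and 3.00% lay on spike-ins and 0.000195% and 0.000186% on numeric identifiers and phiX. These features entered neither library sizes nor tests.

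With 1 library on each side no quasi-likelihood test was possible. The 20918 genes whose counts summed to 10 or more were compared by a two-sided exact binomial test with TMM sizes (edgeR 4.0.16, R 4.3.3, scipy 1.17.1), Benjamini-Hochberg adjusted over all of them, and called where the adjusted p was under 0.05 and the log2 ratio at or beyond 1 in size. A prior count of 0.5 entered the ratios. Dispersion for the edgeR exact test came from an intercept-only fit to both libraries. DESeq2 1.42.0 gave size factors for an alternative. The binomial test was tested on simulated counts. Promoters came from RefSeq (GRCm38.p6), and 3′ UTRs from M21 transcripts, taking for each gene the coding transcript with the highest mean TPM. Apart from all 10 genes, the text names the 3 highest genes of each pathway or stress list, called genes, genes below 1 TPM and overlapping genes. A gene that this rule would name is not reported here. Hspa1a, Barx1 and Gata4 were named after their values were seen. Alternatives were FPKM, CPM or posterior-mean values, other TPM limits, other library sizes, count minimums and prior counts, and each library left out.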

Additional observations from a re-analysis of the deposited data

How the results depend on the processing

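With spike-in totals as library sizes 2 of the 10 genes were called, and the median ratio of the 10 was 0.75. The median of all genes was 0.68 with these sizes, under an unchanged ratio limit. The share of all genes called was not counted, so the 2 calls have no background to be set against. The ratios of Fosl1 (0.22) and Ier2 (0.66) then turned positive. With TMM sizes and an adjusted p below 0.05 alone, 3 genes passed the binomial test, as did 31.5% of all genes. The edgeR exact test called 0 genes of the pathway lists. The log2 ratio of the Jun to the Fos sum was 2.53 from CPM, which is not corrected for length, and 3.14 with the M21 length of Jund, an alternative added after the data were seen. Without replicate 1 or 2 it was 2.77 to 3.05, and 8 genes were detected either way. Of the alternative values for the main results, 22 stayed within the replicate spread or 1.5 times the count and 6 did not. Some of the 22 could not have come out otherwise. A Jun to Fos ratio from 1 library always lies within the SD of both. For the median ratio the spread used (0.049) was derived from that ratio itself. The tally is therefore no measure of robustness. Posterior-mean values put 87.8% of Fos on Fos-201 and 84.4% of Atf3 on Atf3-201. No paired analysis was possible because there is a single group. Depth left Fosb and Fosl1, at 30 counts or fewer per library, with wide intervals for their ratios.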
